A study of Mus musculus with 10 samples.

Results

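The genes described here are 38 mouse genes of glycolysis and of the transcriptional response to low oxygen, chosen by symbol from a fixed list. All 38 were found among the 24454 genes of the counts table, and 36 had enough counts to be tested. The other members, the neuronal enolase Eno2 and the lactate exporter Slc16a3, had at most 3 and 1 counts in any library.

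RNA was sequenced from E9 cells, a subclone of NMuMG, a mouse mammary gland line. NMuMG cells are epithelial and turn mesenchymal under the cytokine TGFbeta (epithelial-mesenchymal transition). Every culture received siRNA at 20 nM and was collected 3 d later. The siRNA was a control (siCtr) or was directed against Irf1 (siIrf1), which encodes the transcription factor interferon regulatory factor 1, and recombinant human TGFbeta1 at 2 ng/ml was absent (0 d) or present for the last 2 d. Replicates 1 and 3 made up siCtr 0 d and replicates 2 and 3 siCtr TGFbeta, while siIrf1 0 d and siIrf1 TGFbeta had 3 libraries each. All cells come from 1 subclone. The labels do not say whether replicates are separate cultures, and p-values measure the spread between these libraries, which may be technical.

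Glycolysis converts glucose to pyruvate. Glucose enters through carriers such as Slc2a1, is trapped by hexokinases, passes the phosphofructokinase step that sets the pace of the pathway, and yields pyruvate, which is either reduced to lactate and exported or taken into mitochondria. Most of these enzymes are textbook targets of hypoxia-inducible factor 1 (HIF-1), whose alpha subunit Hif1a is marked for destruction by oxygen-dependent prolyl hydroxylases of the Egln family. Hif1a is controlled mainly at the protein level, which was not measured here.

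HIF-1 binds DNA at a core written ACGTG or GCGTG on either strand. In the 250 bases upstream of a RefSeq start (GRCm38.p6), 33 of the 36 members with a promoter entry held at least 1 such core (91.7%), against 11226 of 27025 genes in all (41.5%). ACGTG alone was found in 23 members (63.9%) and in 18.5% of all genes. A gene counted once if any of its windows held a core. By window, 42 of 54 held ACGTG or GCGTG for the members (77.8%) and 12679 of 32851 for all genes (38.6%). The members include textbook HIF targets, and all genes were not matched to them in expression or GC content. Enrichment was not tested. The sequence CACGTG, the core bound by other factors too, is counted on both strands. Eno2, Gpi1 and Tpi1 had neither core in this window.

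Stretches around the cores are shown for 4 members with large changes in siCtr cells, with the cores in capitals: Egln3 and Pdk1, which fell with TGFbeta, and Ddit4 and Hk2, which rose. Each reads 5′ to 3′ on the gene's strand, and CACGT is ACGTG on the opposite strand. Egln3 is at chr12:54204079-54204123 on the minus strand, Pdk1 at chr2:71873126-71873170 on the plus strand, Ddit4 at chr10:59951861-59951977 on the minus strand and Hk2 at chr6:82774482-82774700 on the minus strand, all outside annotated exons. A match describes the letters and says nothing about binding.
Egln3: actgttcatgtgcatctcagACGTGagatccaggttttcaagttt
Pdk1: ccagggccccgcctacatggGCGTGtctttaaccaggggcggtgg
Ddit4: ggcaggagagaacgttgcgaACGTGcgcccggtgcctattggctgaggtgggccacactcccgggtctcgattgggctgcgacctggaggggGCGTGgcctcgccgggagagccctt
Hk2: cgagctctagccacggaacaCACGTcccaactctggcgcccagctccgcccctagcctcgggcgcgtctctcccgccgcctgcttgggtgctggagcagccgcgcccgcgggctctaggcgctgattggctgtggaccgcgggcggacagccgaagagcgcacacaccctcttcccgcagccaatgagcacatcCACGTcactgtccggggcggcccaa

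Libraries held 27547649 to 67301646 counts and 14475 to 15771 genes with at least 1 count. Levels below are CPM, read counts relative to the effective library size that edgeR gives. Changes are log2 fold changes ± SE from edgeR's quasi-likelihood test, called at a Benjamini-Hochberg adjusted p under 0.05 over 13135 genes. Irf1, the target of the siRNA, was at 148 and 129 CPM in siCtr 0 d, 106 and 112 in siCtr TGFbeta, 56.4, 64.1 and 57.7 in siIrf1 0 d, and 36.5, 46.2 and 41 in siIrf1 TGFbeta. It was lower with siIrf1 both at 0 d (-1.22 ± 0.15, adjusted p = 0.000795) and with TGFbeta (-1.40 ± 0.15, adjusted p = 0.000348). Fibronectin (Fn1), a mesenchymal matrix gene, rose with TGFbeta in siCtr (5.07) and siIrf1 cells (2.53), while E-cadherin (Cdh1) fell in siCtr cells (-0.87) and was at 0.15, adjusted p = 0.516 in siIrf1 cells. Of 14 mammary epithelial markers, whose summed level was 7035 to 14854 CPM, Epcam, Cldn3 and Cldn7 were at 0 in every library of 3 groups, and Cldn7 also in siIrf1 TGFbeta. The summed level of 9 fibroblast or pericyte markers was 0.515 to 1.10 CPM at 0 d and 27.2 to 39.0 with TGFbeta, with Col1a2 and Lum at 0 in all libraries; its part in the changes with TGFbeta was not tested. In bulk RNA, fewer cells of a type and less RNA per cell cannot be told apart.

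Libraries also differed in how genes of low and high GC content were represented. A GC index, the median log2 deviation of genes in the lowest quartile of GC minus that of the highest quartile, read -1.496 and -0.56 in siCtr 0 d and -0.27 and -0.28 in siCtr TGFbeta. It was 0.60, 0.06 and 0.79 in siIrf1 0 d and 0.70, -0.38 and 0.88 in siIrf1 TGFbeta. The siCtr libraries thus lay below the siIrf1 libraries at 0 d. siCtr 0 d replicate 1 had the lowest index of all, but with 2 libraries in that group neither can be called the exception. siIrf1 TGFbeta replicate 2 lay below the others of its group, as did siIrf1 0 d replicate 2 (0.06). Below, siCtr 0 d replicate 1 and siIrf1 TGFbeta replicate 2 are named the libraries that stood apart, a choice made after seeing the data. Calls lost when a trend with GC content and length was removed, or without single libraries, are given beside the values.

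The members split with TGFbeta in siCtr cells: 15 fell and 7 rose of 36 tested, where 16.3% and 16.1% of all genes were called in these directions (32.5% in either). The members' median log2 fold change was -0.52, against 0.02 over all genes tested. In siIrf1 cells 9 fell and 4 rose (9.71% and 11.6% of all genes, 21.3% in either), with a median of -0.30 for the members and 0.02 for all genes. Falls were shared by Aldoa, Aldoc, Ankrd37, Egln3, Ldha, Pgk1, Slc16a1 and Tpi1 (8 of the 15 in siCtr and of the 9 in siIrf1 cells), and rises by Ddit4, Hk2 and Pfkfb3 (3 of 7 and of 4). Calls shared by both siRNAs were not counted over all genes, so this overlap cannot be called particular to the members. Without siIrf1 TGFbeta replicate 2 the falls in siIrf1 cells numbered 14, and over all genes 1276 became 1576. Fewer falls in siCtr cells were called without siCtr TGFbeta replicate 2, both among the members and over all genes. Without both libraries that stood apart, more members fell in siCtr and in siIrf1 cells. Over all genes, more then fell in siIrf1 cells and fewer in siCtr cells. With the replicate number as a block, 13 members fell in siIrf1 cells, adding Slc2a1 (-0.45), Gpi1 (-0.52), Gapdh (-0.72) and Pkm (-0.59), and with the GC and length trend removed 16 fell.

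**Figure D1:**
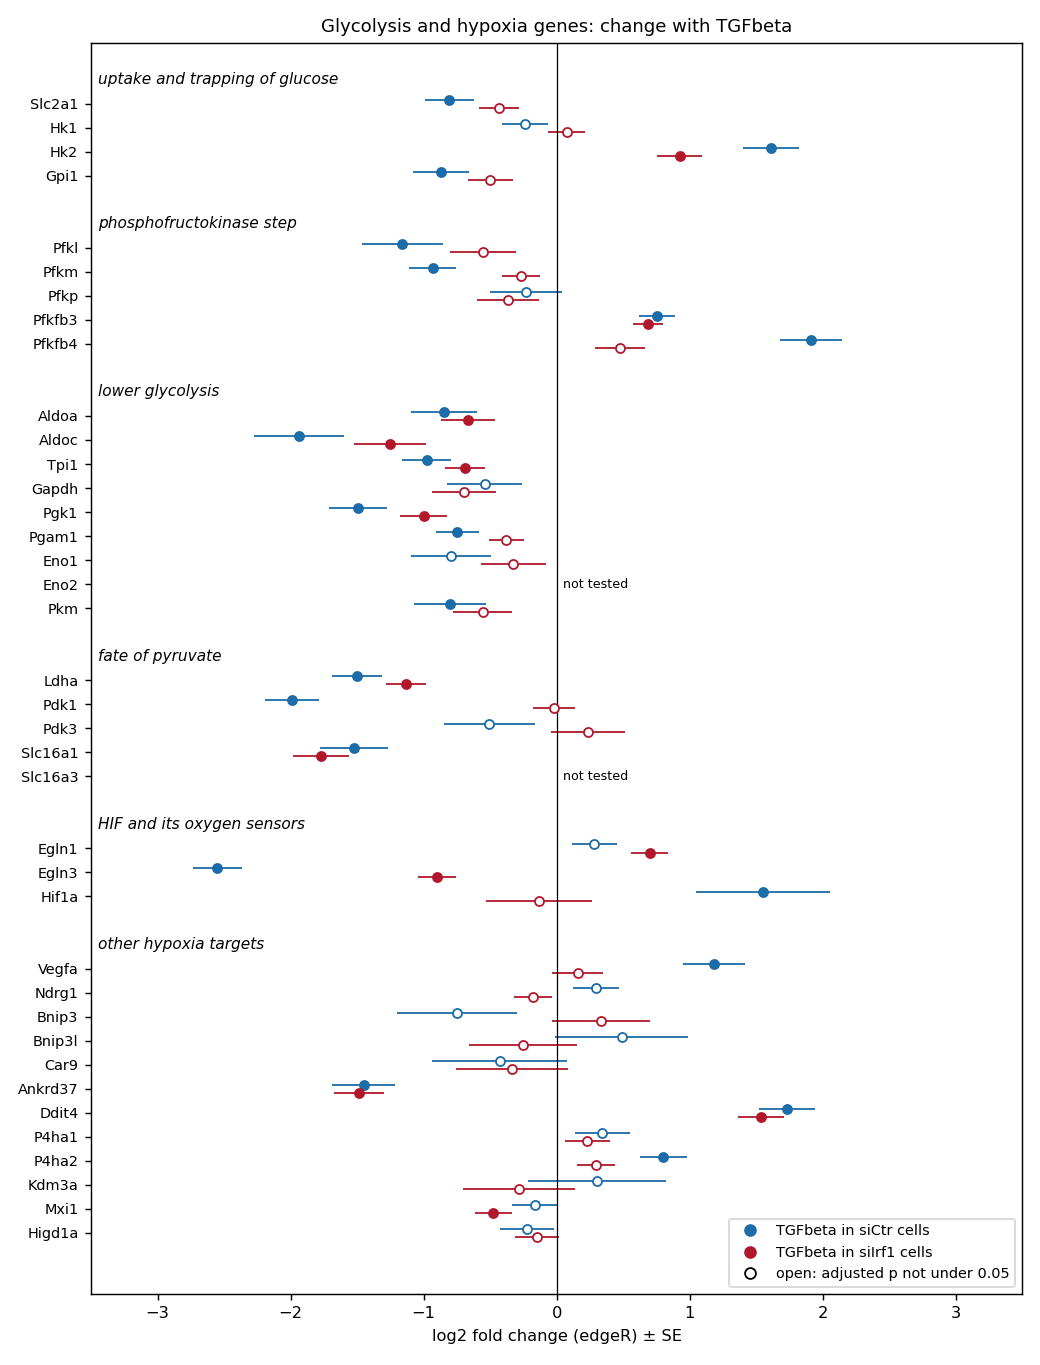
Log2 fold change (x axis, ± SE) with TGFbeta for each of the 38 members (rows, grouped by role) in siCtr cells (blue) and siIrf1 cells (red); filled points have an adjusted p under 0.05. Lower glycolysis lies to the left of 0 in both, while Hk2, Pfkfb3 and Ddit4 lie to the right in both. Pdk1, Hif1a, Egln3 and Pfkfb4 have the widest gaps between the colours, and that of Hif1a was not called in the interaction.

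With siIrf1 at 0 d, 17 members were lower and 2 higher than with siCtr, where 15.5% and 16.3% of all genes were called (31.8% in either). The members' median was -0.50, against -0.03 over all genes. With the GC and length trend removed 12 members were lower, and 13 with the replicate block as well. With TGFbeta, 10 were lower and 3 higher (8.28% and 9.72% of all genes, 18.0% in either), with medians of -0.25 and 0.05. Aldoa, Ddit4, Gapdh, Hk1, Ndrg1, Pfkfb4, Pfkp and Slc2a1 were lower under both conditions (8 of 17 and of 10), Pfkfb3 was higher under both, and Egln3 was lower at 0 d and higher with TGFbeta. Calls shared by both conditions were not counted over all genes. The count of members lower at 0 d depended on single libraries, as did that over all genes (2039, and 849, 1197 and 1071 without siCtr 0 d replicate 1 and siIrf1 0 d replicates 1 and 3). Among the members it was 8 without siIrf1 0 d replicate 1 and 10 without siIrf1 0 d replicate 3. More members, and also more of all genes, were higher without siCtr 0 d replicate 3. Without any 1 siCtr library the count of members that were lower was smaller as well. With TGFbeta it was 4 and 3 without siCtr TGFbeta replicates 2 and 3, 6 without siIrf1 TGFbeta replicate 1 or 3, and 19, with 5 higher, without both libraries that stood apart; over all genes 1088 became 444 and 487 without siCtr TGFbeta replicates 2 and 3, 693 without siIrf1 TGFbeta replicate 1, and 2327 without both that stood apart.

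**Figure D2:**
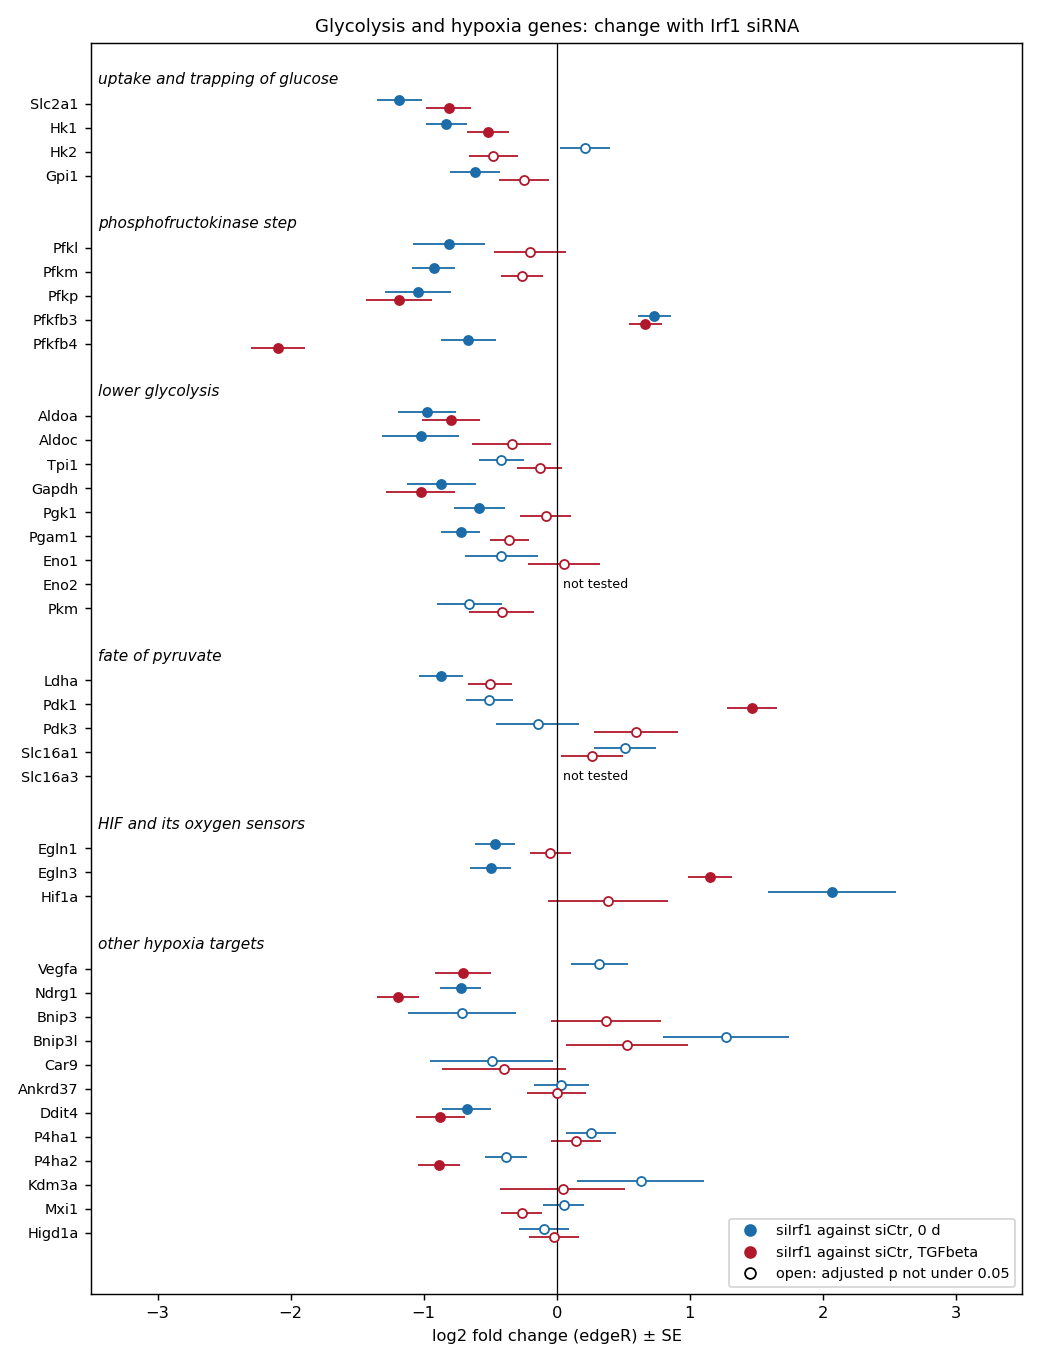
Log2 fold change (x axis, ± SE) of siIrf1 against siCtr for each of the 38 members (rows, grouped by role) at 0 d (blue) and with TGFbeta (red); filled points have an adjusted p under 0.05. Blue points lie mostly left of 0 in the first groups of rows, and Pdk1 and Egln3 have blue points left of 0 and red points right of it.

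The TGFbeta effect itself differed between the siRNAs for 3 members, 2 with a higher and 1 with a lower effect in siIrf1 cells, where 2.80% and 1.32% of all genes were called (4.12% in either). They were Pdk1, Egln3 and Pfkfb4, described below. For the other 33 tested members a call in 1 siRNA and not in the other is no test of a difference, and their interaction did not pass the threshold. The comparisons share libraries: siCtr 0 d enters both the TGFbeta effect in siCtr cells and the siIrf1 effect at 0 d, so that the 10 members that fell in both are not independent evidence. How many of all genes fell in both was not counted. Among the 4 libraries numbered 3, the only number present in every group, every called member had the direction of its call (22 of 22 and 13 of 13 with TGFbeta, 19 of 19 and 13 of 13 with siIrf1, and 3 of 3 in the interaction). These libraries are also in the fit that made the calls. Agreement was thus largely fixed in advance and is no independent replication.

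In glucose uptake and trapping, Slc2a1 and Gpi1 fell with TGFbeta in siCtr cells and Hk2 rose, while Hk2 was the 1 of the 4 members called in siIrf1 cells. Slc2a1 (GLUT1) is the main carrier of glucose into proliferating cells. Its level was 289 and 276 CPM in siCtr 0 d, 164 and 158 in siCtr TGFbeta, 116, 137 and 119 in siIrf1 0 d, and 80.5, 112 and 83.2 in siIrf1 TGFbeta. The 4 groups did not overlap, from siCtr 0 d at the top to siIrf1 TGFbeta at the bottom. Slc2a1 fell with TGFbeta in siCtr cells (-0.81 ± 0.19, adjusted p = 0.00821) and was at -0.44, adjusted p = 0.0692 in siIrf1 cells. With siIrf1 it was lower at 0 d (-1.18 ± 0.17, adjusted p = 0.00123, 0.44 times the siCtr level) and with TGFbeta (-0.81 ± 0.17, adjusted p = 0.00875). The fall with TGFbeta in siCtr cells was not called without any 1 of siCtr 0 d replicate 1 and siCtr TGFbeta replicates 2 and 3 (-0.75 to -0.70), and the siIrf1 effect with TGFbeta without any 1 of siCtr TGFbeta replicates 2 and 3 (-0.88 to -0.84).

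Hexokinase 2 (Hk2) is the inducible form that phosphorylates glucose at mitochondria. It was at 86.3 and 65.4 CPM in siCtr 0 d, 234 and 229.8 in siCtr TGFbeta, 91.7, 94.6 and 77.2 in siIrf1 0 d, and 140.3, 198 and 161 in siIrf1 TGFbeta. Every TGFbeta library was above every 0 d library. It rose with TGFbeta in siCtr (1.61 ± 0.21, adjusted p = 0.000269, 3.06 times) and siIrf1 cells (0.92 ± 0.17, adjusted p = 0.00289), and the siIrf1 effect did not pass the threshold at 0 d (0.21, adjusted p = 0.406) or with TGFbeta (-0.48, adjusted p = 0.106). Hexokinase 1 (Hk1) is the form expressed in most tissues. Its level was 274 and 249 CPM in siCtr 0 d, 214 and 229 in siCtr TGFbeta, 146, 159 and 136 in siIrf1 0 d, and 145, 182 and 137 in siIrf1 TGFbeta. All siIrf1 libraries were below all siCtr libraries. Hk1 was lower with siIrf1 at 0 d (-0.83 ± 0.16, adjusted p = 0.00419) and, close to the threshold, with TGFbeta (-0.52 ± 0.16, adjusted p = 0.0449), a call lost without any 1 of siIrf1 0 d replicates 1, 2 and 3, siCtr TGFbeta replicates 2 and 3 and siIrf1 TGFbeta replicates 1 and 3 (-0.62 to -0.44) and with the GC and length trend removed (-0.29, adjusted p = 0.0893). Its change with TGFbeta was -0.24, adjusted p = 0.314 in siCtr and 0.07, adjusted p = 0.782 in siIrf1 cells.

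Per kilobase of gene, the share of Hk2 in Hk1 plus Hk2 was 20.5 and 17.7% in siCtr 0 d, 47.2 and 45.1 in siCtr TGFbeta, 34, 32.7 and 31.7 in siIrf1 0 d, and 44.1, 47.2 and 49 in siIrf1 TGFbeta. The share was lowest in siCtr 0 d, intermediate in siIrf1 0 d and highest in both TGFbeta groups, which overlapped. Glucose-6-phosphate isomerase (Gpi1) makes fructose 6-phosphate. It was at 685 and 608 CPM in siCtr 0 d, 360.3 and 348 in siCtr TGFbeta, 393, 466 and 406 in siIrf1 0 d, and 286, 374 and 235 in siIrf1 TGFbeta, highest in siCtr 0 d without overlap. Gpi1 fell with TGFbeta in siCtr cells (-0.87 ± 0.21, adjusted p = 0.0103) and was lower with siIrf1 at 0 d (-0.62 ± 0.19, adjusted p = 0.0323). The first call was lost without any 1 of siCtr 0 d replicate 1 and siCtr TGFbeta replicates 2 and 3 (-0.80 to -0.74), and the second without any 1 of siCtr 0 d replicates 1 and 3, siIrf1 0 d replicates 1 and 3 and siCtr TGFbeta replicates 2 and 3 (-0.63 to -0.54) and with the GC and length trend removed (-0.31, adjusted p = 0.0992).

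At the phosphofructokinase step Pfkm and Pfkl fell with TGFbeta in siCtr cells, while Pfkfb3 and Pfkfb4, which make the activator of the enzyme, rose. The muscle form Pfkm was the most abundant per kilobase of the 3 in every library. Pfkm was at 436 and 388 CPM in siCtr 0 d, 206 and 226 in siCtr TGFbeta, 205, 233 and 213 in siIrf1 0 d, and 171, 213 and 157 in siIrf1 TGFbeta. The liver form Pfkl was at 221 and 273 CPM in siCtr 0 d, 114 and 107 in siCtr TGFbeta, 115, 172 and 136 in siIrf1 0 d, and 87.6, 133 and 67 in siIrf1 TGFbeta. Both siCtr 0 d libraries were above all others for each gene. Pfkm fell with TGFbeta in siCtr cells (-0.93 ± 0.18, adjusted p = 0.00281) and was lower with siIrf1 at 0 d (-0.93 ± 0.16, adjusted p = 0.00281), as was Pfkl (-1.16 ± 0.30, adjusted p = 0.0158 and -0.81 ± 0.27, adjusted p = 0.0459). The call of Pfkm with TGFbeta was lost without siCtr TGFbeta replicate 2 (-0.77) and that of Pfkl without any 1 of siCtr 0 d replicate 3 and siCtr TGFbeta replicates 2 and 3 (-1.12 to -0.88). The call of Pfkl with siIrf1 was lost without any 1 of siCtr 0 d replicates 1 and 3, siIrf1 0 d replicates 1 and 3, siCtr TGFbeta replicates 2 and 3 and siIrf1 TGFbeta replicate 1 (-0.96 to -0.58) and with the trend removed (-0.38, adjusted p = 0.0964).

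The platelet form Pfkp was a minor one, at 3.53 and 4.15 CPM in siCtr 0 d, 2.77 and 3.83 in siCtr TGFbeta, 1.85, 1.72 and 2.03 in siIrf1 0 d, and 1.24, 1.73 and 1.32 in siIrf1 TGFbeta, with 42 to 149 counts per library. It was lower with siIrf1 at 0 d (-1.04 ± 0.25, adjusted p = 0.0118) and with TGFbeta (-1.18 ± 0.25, adjusted p = 0.0095), while its TGFbeta effects were not called (-0.23 and -0.37). Both siIrf1 groups lay below both siCtr groups. The calls were lost without siCtr 0 d replicate 3 (-0.85) at 0 d and without siCtr TGFbeta replicate 3 (-0.98) with TGFbeta.

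Pfkfb3 and Pfkfb4 make the activator fructose 2,6-bisphosphate, and Pfkfb3 has the higher kinase activity. Pfkfb3 was at 79.2 and 80.9 CPM in siCtr 0 d, 132 and 138 in siCtr TGFbeta, 137, 132 and 130.1 in siIrf1 0 d, and 209, 213 and 221 in siIrf1 TGFbeta. The siCtr 0 d libraries were the lowest and the siIrf1 TGFbeta libraries the highest, with siIrf1 0 d and siCtr TGFbeta overlapping between them. Pfkfb3 rose with TGFbeta in siCtr (0.75 ± 0.13, adjusted p = 0.00186) and siIrf1 cells (0.69 ± 0.11, adjusted p = 0.00128) and with siIrf1 at 0 d (0.73 ± 0.12, adjusted p = 0.0027) and with TGFbeta (0.67 ± 0.12, adjusted p = 0.00547), and the interaction was -0.07, adjusted p = 0.861. It was the 1 member higher with siIrf1 under both conditions, and the call with TGFbeta was lost without any 1 of siCtr TGFbeta replicates 2 and 3 (0.58 to 0.65).

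Pfkfb4 (chr9:108988272-109032236) was at 6.09 and 6 CPM in siCtr 0 d, 23.1 and 22.2 in siCtr TGFbeta, 3.8, 4.21 and 3.43 in siIrf1 0 d, and 5.73, 5.88 and 4.27 in siIrf1 TGFbeta. Only the siCtr TGFbeta libraries were high, and both siIrf1 groups lay below siCtr 0 d. It rose with TGFbeta in siCtr cells (1.91 ± 0.23, adjusted p = 0.000176, 3.75 times) and was at 0.48, adjusted p = 0.107 in siIrf1 cells. The effects differed by -1.43 ± 0.30, adjusted p = 0.0259 (interaction), a call lost without any 1 of siCtr 0 d replicate 1, siIrf1 0 d replicates 1, 2 and 3 and siCtr TGFbeta replicates 2 and 3 (-1.53 to -1.35). With siIrf1 it was lower with TGFbeta (-2.10 ± 0.20, adjusted p = 0.000188, 0.234 times) and at 0 d (-0.66 ± 0.21, adjusted p = 0.0357), the latter lost without any 1 of siCtr 0 d replicates 1 and 3, siIrf1 0 d replicates 1 and 3, siCtr TGFbeta replicates 2 and 3 and siIrf1 TGFbeta replicate 1 (-0.66 to -0.59) and with the trend removed (-0.28, adjusted p = 0.17). Per kilobase, Pfkfb4 was 10.8 and 10.4% in siCtr 0 d, 21.6 and 20.2 in siCtr TGFbeta, 4.18, 4.76 and 3.98 in siIrf1 0 d, and 4.12, 4.17 and 2.96 in siIrf1 TGFbeta of Pfkfb3 plus Pfkfb4, and no group with siIrf1 overlapped a group with siCtr.

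**Figure D3:**
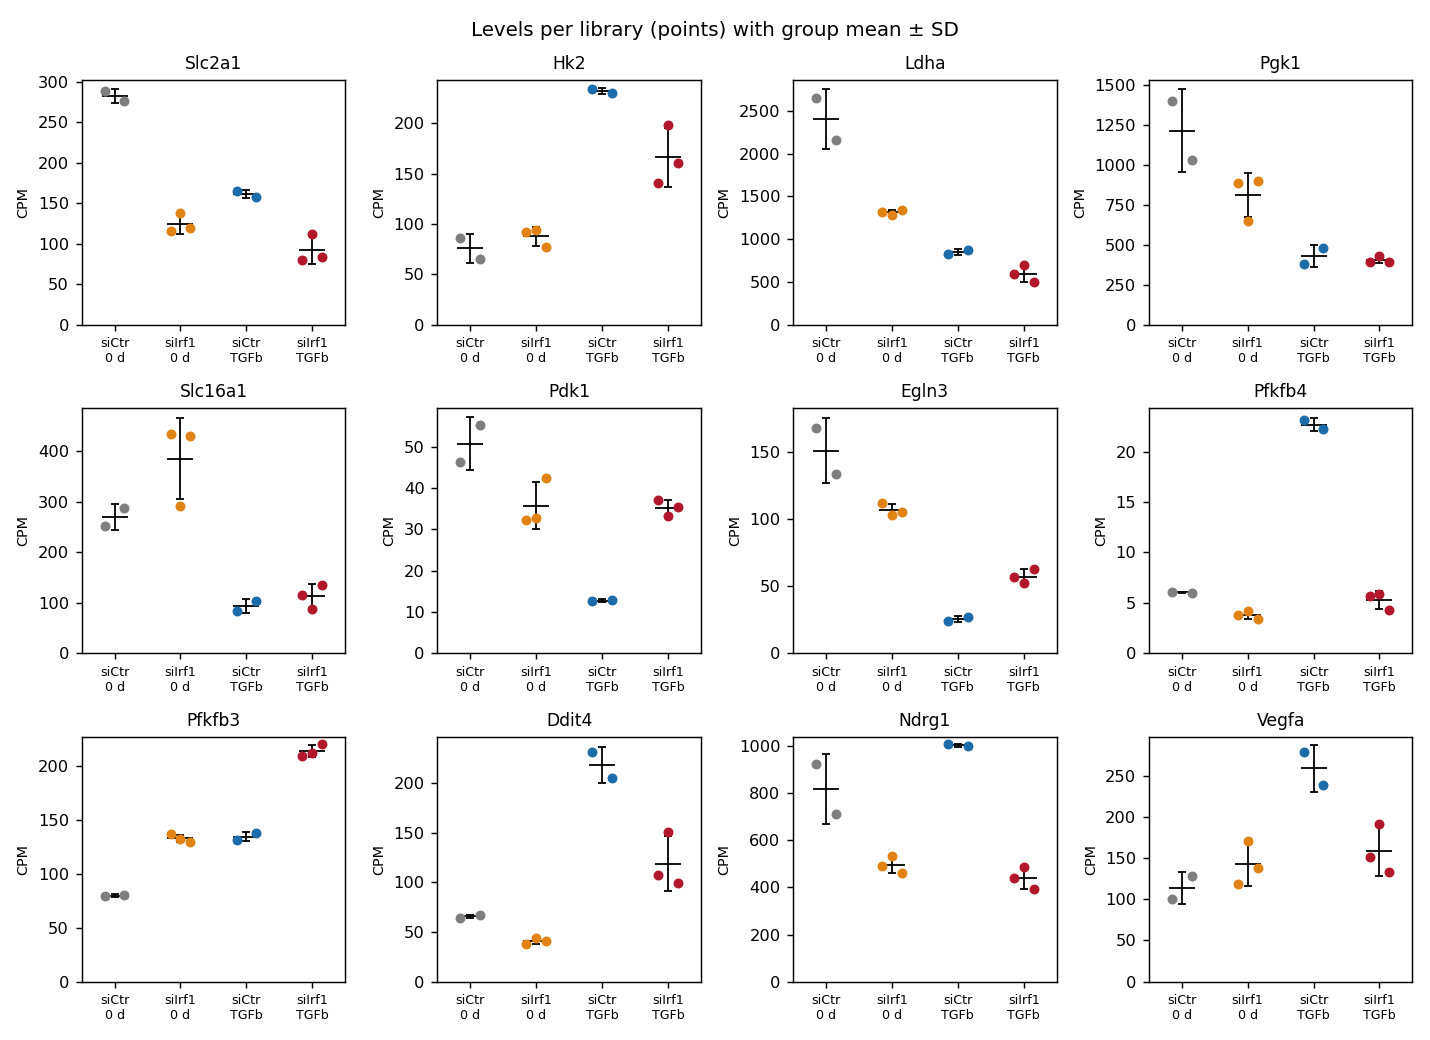
Level (y axis, CPM, from 0) of 12 members in each library (points) by group (x axis), with the group mean and SD (black, n = 2 or 3). Slc2a1, Ldha, Pgk1 and Slc16a1 are lower with TGFbeta, Hk2, Ddit4 and Pfkfb3 are higher, and Pdk1 and Pfkfb4 stand apart in siCtr TGFbeta alone.

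In lower glycolysis 6 of 8 tested members fell with TGFbeta in siCtr cells and 4 in siIrf1 cells (75% and 50%, against 16.3% and 9.71% of all genes). None rose, where 16.1% and 11.6% of all genes did. Their summed level, with Eno2 counted, was 11986 and 10767 CPM in siCtr 0 d, 6211 and 6173 in siCtr TGFbeta, 7024, 7724 and 6989.9 in siIrf1 0 d, and 4960.3, 5973 and 3807 in siIrf1 TGFbeta. Per kilobase, Pgam1, Pkm and Ldha led the members in siCtr 0 d (1542, 1301 and 1245 CPM per kilobase, group means). Many of these genes share near-identical stretches with transcripts of other genes, and their values are uncertain. Matches at 95% identity or more over at least 300 bases were found for Gapdh (103 genes) and for Ldha, Pgk1 and Eno1 (4 each). Pgam1 and Pkm had 2 each, and Tpi1, Gpi1, Pfkm and Pfkp 1 each. That of Pfkp was Pitrm1, over 748 bases. Whether a match is a copy elsewhere or a gene that overlaps the member was not tested. Among the other members, Bnip3 matched 5 genes, and Bnip3l, Higd1a and Ndrg1 1 each. How the authors counted reads that fit several genes is not given in the sources used here.

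Aldolase splits fructose 1,6-bisphosphate. The main form Aldoa was at 1539 and 1537 CPM in siCtr 0 d, 902 and 806 in siCtr TGFbeta, 716, 910.4 and 717 in siIrf1 0 d, and 487, 633 and 355 in siIrf1 TGFbeta. The brain form Aldoc was at 50.4 and 51.7 CPM in siCtr 0 d, 13 and 13.7 in siCtr TGFbeta, 18.6, 26.9 and 29.8 in siIrf1 0 d, and 7.23, 14.8 and 9.45 in siIrf1 TGFbeta. Both genes had their highest libraries in siCtr 0 d and did not overlap it in any other group. Aldoc fell with TGFbeta in siCtr (-1.94 ± 0.34, adjusted p = 0.00165, 0.261 times) and siIrf1 cells (-1.25 ± 0.27, adjusted p = 0.00743), and was lower with siIrf1 at 0 d (-1.02 ± 0.29, adjusted p = 0.0249), the last lost without any 1 of siCtr 0 d replicates 1 and 3, siIrf1 0 d replicate 1 and siCtr TGFbeta replicates 2 and 3 (-1.05 to -0.85). Aldoa was lower in all 4 comparisons: -0.85 ± 0.25, adjusted p = 0.0242 and -0.67 ± 0.20, adjusted p = 0.038 with TGFbeta in siCtr and siIrf1 cells, and -0.98 ± 0.22, adjusted p = 0.00953 and -0.80 ± 0.22, adjusted p = 0.032 with siIrf1 at 0 d and with TGFbeta. Its call with TGFbeta was lost in siCtr cells without any 1 of siCtr 0 d replicates 1 and 3 and siCtr TGFbeta replicates 2 and 3 (-0.84 to -0.69) and in siIrf1 cells without any 1 of siIrf1 0 d replicates 1, 2 and 3, siCtr TGFbeta replicates 2 and 3 and siIrf1 TGFbeta replicates 1 and 3 (-0.73 to -0.48), and its siIrf1 call with TGFbeta without any 1 of siIrf1 0 d replicate 1, siCtr TGFbeta replicates 2 and 3 and siIrf1 TGFbeta replicates 1 and 3 (-0.92 to -0.61). Aldoc was 0.904 to 2.58% of Aldoa plus Aldoc per kilobase.

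Triose phosphate isomerase (Tpi1) was at 1437 and 1270.2 CPM in siCtr 0 d, 695 and 679.7 in siCtr TGFbeta, 953, 1099 and 992 in siIrf1 0 d, and 615, 750.0 and 522 in siIrf1 TGFbeta. All TGFbeta libraries were below all 0 d libraries. Tpi1 fell with TGFbeta in siCtr (-0.98 ± 0.19, adjusted p = 0.0027) and siIrf1 cells (-0.69 ± 0.15, adjusted p = 0.00785). With siIrf1 at 0 d it was at -0.42, adjusted p = 0.0798, and was called with the replicate block (-0.49, adjusted p = 0.0364). Phosphoglycerate kinase 1 (Pgk1) makes the first ATP of the pathway. Its level was 1401 and 1029.8 CPM in siCtr 0 d, 379.9 and 481 in siCtr TGFbeta, 885, 652 and 899 in siIrf1 0 d, and 395, 429 and 394 in siIrf1 TGFbeta. Again no TGFbeta library reached a 0 d library. Pgk1 fell with TGFbeta in siCtr (-1.50 ± 0.22, adjusted p = 0.000527, 0.354 times) and siIrf1 cells (-1.001 ± 0.18, adjusted p = 0.00232), and was lower with siIrf1 at 0 d (-0.58 ± 0.19, adjusted p = 0.0432). That last call was lost without any 1 of siCtr 0 d replicate 1, siIrf1 0 d replicates 1, 2 and 3, siCtr TGFbeta replicates 2 and 3 and siIrf1 TGFbeta replicate 1 (-0.66 to -0.35), with the replicate block (-0.51, adjusted p = 0.0654) and with the trend removed (-0.40, adjusted p = 0.0527).

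Phosphoglycerate mutase 1 (Pgam1) was at 3048 and 2602 CPM in siCtr 0 d, 1533 and 1835 in siCtr TGFbeta, 1727, 1721 and 1686 in siIrf1 0 d, and 1358, 1404 and 1183 in siIrf1 TGFbeta. The siCtr 0 d libraries were the highest and siIrf1 TGFbeta the lowest. The levels of siIrf1 0 d and siCtr TGFbeta overlapped. Pgam1 fell with TGFbeta in siCtr cells (-0.75 ± 0.16, adjusted p = 0.00562), a call lost without any 1 of siCtr 0 d replicate 1 and siCtr TGFbeta replicate 2 (-0.59 to -0.53), and was lower with siIrf1 at 0 d (-0.72 ± 0.14, adjusted p = 0.00556). Pyruvate kinase (Pkm) is the last step. It was at 3522 and 3238 CPM in siCtr 0 d, 2072 and 1805 in siCtr TGFbeta, 2006, 2457 and 1965 in siIrf1 0 d, and 1459, 1931 and 979 in siIrf1 TGFbeta, highest in siCtr 0 d. Pkm fell with TGFbeta in siCtr cells close to the threshold (-0.80 ± 0.27, adjusted p = 0.0462), a call lost without any 1 of siCtr 0 d replicates 1 and 3, siIrf1 0 d replicates 1, 2 and 3, siCtr TGFbeta replicates 2 and 3 and siIrf1 TGFbeta replicate 1 (-0.81 to -0.63). With siIrf1 at 0 d it was at -0.66, adjusted p = 0.0638, and was called with the replicate block (-0.79, adjusted p = 0.0163).

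Glyceraldehyde 3-phosphate dehydrogenase (Gapdh), the gene with most copies, had only 34 to 138 counts per library. Its level was 3.93 and 3.18 CPM in siCtr 0 d, 2.57 and 2.3 in siCtr TGFbeta, 1.91, 2.19 and 1.71 in siIrf1 0 d, and 1, 1.52 and 1.02 in siIrf1 TGFbeta. Each siIrf1 group was below the siCtr group of its condition. It was lower with siIrf1 at 0 d (-0.87 ± 0.26, adjusted p = 0.0282) and with TGFbeta (-1.02 ± 0.26, adjusted p = 0.0223), and its TGFbeta effects were not called (-0.54, adjusted p = 0.166 and -0.70, adjusted p = 0.0663). The calls were lost without any 1 of siCtr 0 d replicates 1 and 3, siIrf1 0 d replicates 1 and 3 and siCtr TGFbeta replicates 2 and 3 (-0.95 to -0.72) at 0 d and without any 1 of siCtr TGFbeta replicates 2 and 3 and siIrf1 TGFbeta replicates 1 and 3 (-1.14 to -0.92) with TGFbeta. Enolase 1 (Eno1) was at 985 and 1034 CPM in siCtr 0 d, 614 and 549.7 in siCtr TGFbeta, 716, 856 and 699 in siIrf1 0 d, and 638, 811 and 363 in siIrf1 TGFbeta. Its copy Eno1b was listed at 426 to 1273 CPM, and neither was called in a comparison. Eno1 with TGFbeta in siCtr cells was at -0.80, adjusted p = 0.0689 and was called with the replicate block (-0.94, adjusted p = 0.0365).

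The fate of pyruvate was marked by falls with TGFbeta in the lactate branch. Lactate dehydrogenase A (Ldha) reduces pyruvate to lactate. Its level was 2648 and 2157 CPM in siCtr 0 d, 823 and 872 in siCtr TGFbeta, 1312, 1282 and 1343 in siIrf1 0 d, and 589.6, 704 and 500.0 in siIrf1 TGFbeta. The 4 groups did not overlap, from siCtr 0 d down to siIrf1 TGFbeta. Ldha fell with TGFbeta in siCtr (-1.50 ± 0.19, adjusted p = 0.000194, 0.353 times) and siIrf1 cells (-1.13 ± 0.15, adjusted p = 0.000396, 0.456 times), and was lower with siIrf1 at 0 d (-0.87 ± 0.16, adjusted p = 0.00424) and at -0.50, adjusted p = 0.0607 with TGFbeta. Slc16a1 (MCT1) carries lactate and pyruvate across the membrane. It was at 252 and 288 CPM in siCtr 0 d, 83.9 and 104 in siCtr TGFbeta, 433, 292 and 429 in siIrf1 0 d, and 115, 87.2 and 136 in siIrf1 TGFbeta. No TGFbeta library reached a 0 d library. Slc16a1 fell with TGFbeta in siCtr (-1.53 ± 0.26, adjusted p = 0.00142) and siIrf1 cells (-1.77 ± 0.21, adjusted p = 0.000211, 0.293 times). Its siIrf1 effect at 0 d was 0.51, adjusted p = 0.117. It was called with the replicate block (0.65, adjusted p = 0.0121) and without siIrf1 0 d replicate 2 (0.68), and had the other sign with the trend removed (-0.60, adjusted p = 0.0522; with the block as well, -0.53, adjusted p = 0.117), so that its direction depends on the processing. Its GC content is low (42.9%).

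Pyruvate dehydrogenase kinases keep pyruvate out of mitochondria by inactivating pyruvate dehydrogenase. Pdk1 (chr2:71873215-71903858) is the form best known as a HIF-1 target. Its level was 46.3 and 55.2 CPM in siCtr 0 d, 12.6 and 13 in siCtr TGFbeta, 32.1, 32.6 and 42.3 in siIrf1 0 d, and 37.2, 33.3 and 35.3 in siIrf1 TGFbeta. Both siCtr TGFbeta libraries were below all others, and the siIrf1 TGFbeta libraries lay within the range of siIrf1 0 d. Pdk1 fell with TGFbeta in siCtr cells (-1.99 ± 0.20, adjusted p = 5.37e-05, 0.251 times) and was at -0.02, adjusted p = 0.958 in siIrf1 cells. The effects differed by 1.97 ± 0.26, adjusted p = 0.00295 (interaction), which was called in every alternative run. With TGFbeta, siIrf1 cells held 2.76 times the siCtr level (1.47 ± 0.19, adjusted p = 0.000825), whereas at 0 d the effect was -0.51, adjusted p = 0.0514, called without both libraries that stood apart (-0.64, adjusted p = 0.0326) and with the trend removed (-0.94, adjusted p = 0.00219). Pdk3 was at 15.1 and 15 CPM in siCtr 0 d, 7.93 and 13.3 in siCtr TGFbeta, 16.2, 9.82 and 14.9 in siIrf1 0 d, and 16.8, 11.7 and 19.7 in siIrf1 TGFbeta and was not called in a comparison.

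Among the oxygen sensors, Egln3 fell with TGFbeta in both siRNAs, and Egln1 rose in siIrf1 cells. Egln3 (PHD3, chr12:54178981-54203874) is a prolyl hydroxylase and itself a HIF target. It was at 168 and 134 CPM in siCtr 0 d, 24.2 and 27.3 in siCtr TGFbeta, 112, 103 and 106 in siIrf1 0 d, and 56.7, 52.1 and 62.7 in siIrf1 TGFbeta. The order of the groups was siCtr 0 d, siIrf1 0 d, siIrf1 TGFbeta and siCtr TGFbeta, with no overlap. Egln3 fell with TGFbeta in siCtr (-2.55 ± 0.18, adjusted p = 6.62e-06, 0.171 times) and less so in siIrf1 cells (-0.90 ± 0.14, adjusted p = 0.00117, 0.535 times). The difference between these effects was 1.65 ± 0.22, adjusted p = 0.00357 (interaction), called in every alternative run. With siIrf1 the level was lower at 0 d (-0.50 ± 0.16, adjusted p = 0.035) and higher with TGFbeta (1.15 ± 0.16, adjusted p = 0.0014), and the call at 0 d was lost without any 1 of siCtr 0 d replicate 1, siIrf1 0 d replicates 1, 2 and 3, siCtr TGFbeta replicates 2 and 3 and siIrf1 TGFbeta replicate 1 (-0.53 to -0.33) and with the trend removed (-0.22, adjusted p = 0.197).

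Egln1 (PHD2) is the main HIF prolyl hydroxylase at normal oxygen. Its level was 111 and 85.7 CPM in siCtr 0 d, 118 and 121 in siCtr TGFbeta, 73.1, 71.9 and 68.7 in siIrf1 0 d, and 120.1, 122 and 105 in siIrf1 TGFbeta. In siIrf1 cells every TGFbeta library was above every 0 d library. It rose with TGFbeta in siIrf1 cells (0.70 ± 0.14, adjusted p = 0.00435) and was at 0.28, adjusted p = 0.218 in siCtr cells. Its lower level with siIrf1 at 0 d (-0.46 ± 0.15, adjusted p = 0.0412) was lost without any 1 of siCtr 0 d replicate 1, siIrf1 0 d replicates 1, 2 and 3, siCtr TGFbeta replicates 2 and 3 and siIrf1 TGFbeta replicate 1 (-0.48 to -0.28) and was -0.03, adjusted p = 0.894 with the trend removed. Per kilobase, Egln3 was 66.6 and 67.3% in siCtr 0 d, 21.3 and 22.8 in siCtr TGFbeta, 66.9, 65.3 and 66.9 in siIrf1 0 d, and 38.3, 36 and 44.1 in siIrf1 TGFbeta of Egln1 plus Egln3. The share was alike in both 0 d groups and lowest in siCtr TGFbeta, with no overlap between the TGFbeta groups.

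**Figure D4:**
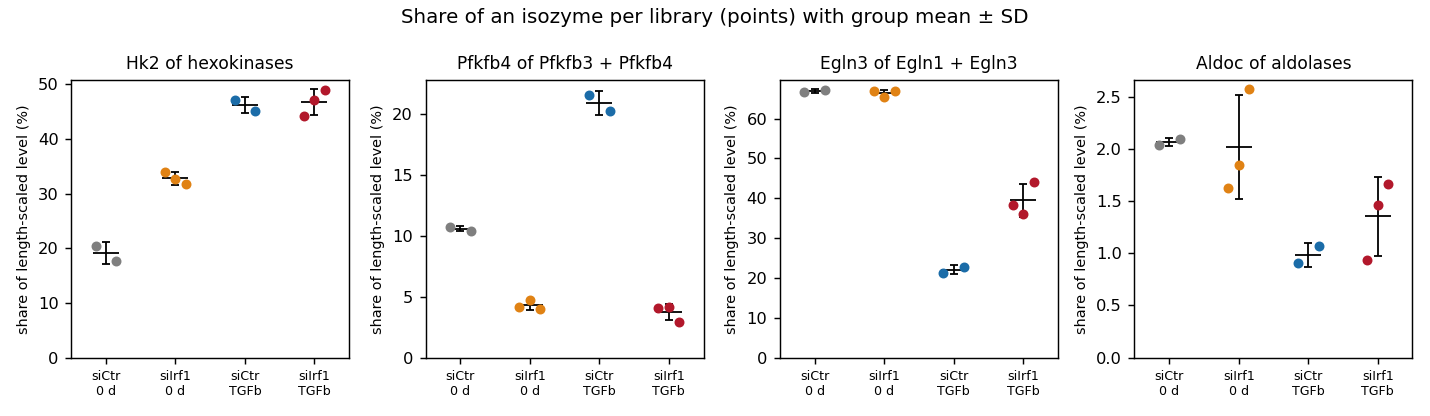
Share of 1 isozyme in the length-scaled level of its family (y axis, %, from 0) in each library (points) by group (x axis), with the group mean and SD (black, n = 2 or 3). Hk2 is at 17.7 and 20.5% in siCtr 0 d and at 45.1 and 47.2% in siCtr TGFbeta. It is at 31.7 to 34.0% in siIrf1 0 d and at 44.1 to 49.0% in siIrf1 TGFbeta. Pfkfb4 is highest in siCtr TGFbeta, and Egln3 is lowest there.

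Hif1a mRNA was at 9.39 and 30.1 CPM in siCtr 0 d, 64.9 and 51 in siCtr TGFbeta, 80.9, 69.7 and 98.7 in siIrf1 0 d, and 98.7, 44.7 and 83.4 in siIrf1 TGFbeta. The siCtr 0 d libraries were the lowest of all, and they differed from each other by a larger ratio than the libraries of any other group. It rose with TGFbeta in siCtr cells (1.55 ± 0.50, adjusted p = 0.0391) and with siIrf1 at 0 d (2.07 ± 0.48, adjusted p = 0.0115, 4.19 times), and was not called in siIrf1 cells with TGFbeta (-0.14, adjusted p = 0.866) or with siIrf1 under TGFbeta (0.38, adjusted p = 0.625). The TGFbeta call was lost without any 1 of siCtr 0 d replicate 1, siIrf1 0 d replicates 1, 2 and 3, siCtr TGFbeta replicates 2 and 3 and siIrf1 TGFbeta replicate 3 (0.98 to 1.77) and with the replicate block (1.77, adjusted p = 0.0515). Hif1a is low in GC (41.3%), and its level followed the GC index from library to library: the lowest levels were in siCtr 0 d replicate 1 and 3 (index -1.496 and -0.56) and in siIrf1 TGFbeta replicate 2 (-0.38). With the trend removed the siIrf1 effect at 0 d was 0.86, adjusted p = 0.00726 and the TGFbeta effect in siCtr cells 0.87, adjusted p = 0.00658. Without siCtr 0 d replicate 1 the siIrf1 effect was 1.45, and without replicate 3 it was 3.21 and the TGFbeta effect in siCtr cells 2.74. The interaction (-1.69, adjusted p = 0.196) was called with the trend removed (-1.16, adjusted p = 0.0232) but not with the replicate block added. Without siCtr 0 d replicate 3 it was -2.89.

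**Figure D5:**
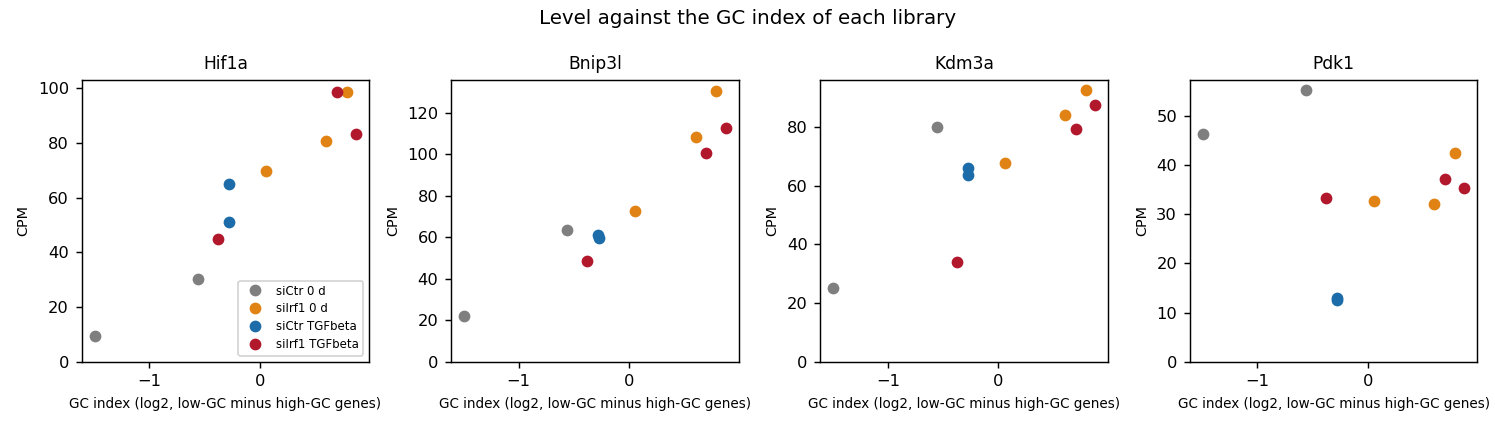
Level (y axis, CPM, from 0) of 4 members against the GC index of each library (x axis, log2), colored by group. Hif1a, Bnip3l and Kdm3a are low in siCtr 0 d replicate 1 (index -1.496) and high in the 4 libraries with an index of 0.60 or more, whereas Pdk1 is lowest in the siCtr TGFbeta libraries at an index near -0.28.

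Among 12 other hypoxia targets, 3 rose and 1 fell with TGFbeta in siCtr cells, and 1 rose and 2 fell in siIrf1 cells. These shares (33.3% and 25%) are near those over all genes (32.5% and 21.3%). Ddit4 (REDD1) is a stress-induced inhibitor of mTOR signalling. It was at 64.5 and 67 CPM in siCtr 0 d, 231 and 205 in siCtr TGFbeta, 38, 44.1 and 41.3 in siIrf1 0 d, and 107, 150.4 and 99.5 in siIrf1 TGFbeta. All TGFbeta libraries were above all 0 d libraries, and siIrf1 was below siCtr in each condition. Ddit4 rose with TGFbeta in siCtr (1.73 ± 0.21, adjusted p = 0.000175, 3.32 times) and siIrf1 cells (1.53 ± 0.17, adjusted p = 0.000127). It was lower with siIrf1 at 0 d (-0.68 ± 0.19, adjusted p = 0.0212) and with TGFbeta (-0.88 ± 0.18, adjusted p = 0.00963). The call at 0 d was lost without any 1 of siCtr 0 d replicates 1 and 3, siIrf1 0 d replicates 1 and 3 and siCtr TGFbeta replicates 2 and 3 (-0.71 to -0.58) and with the trend removed (-0.19, adjusted p = 0.226), and the call with TGFbeta without siCtr TGFbeta replicate 2 (-0.84).

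Vegfa is the angiogenic growth factor. Its level was 100.3 and 128 CPM in siCtr 0 d, 279 and 238 in siCtr TGFbeta, 118, 171 and 137 in siIrf1 0 d, and 151, 192 and 133 in siIrf1 TGFbeta. The siCtr TGFbeta libraries were above all others, and siIrf1 0 d overlapped both other groups. It rose with TGFbeta in siCtr cells (1.18 ± 0.24, adjusted p = 0.00368) and was at 0.16, adjusted p = 0.639 in siIrf1 cells. The interaction was -1.02, adjusted p = 0.1, called with the trend removed (-1.10, adjusted p = 0.041) but not with the replicate block added. With TGFbeta it was lower with siIrf1 (-0.71 ± 0.21, adjusted p = 0.0419), a call lost without any 1 of siIrf1 0 d replicates 1 and 3, siCtr TGFbeta replicates 2 and 3 and siIrf1 TGFbeta replicates 1 and 3 (-0.86 to -0.59). P4ha2 is a subunit of collagen prolyl hydroxylase. It was at 49.8 and 49.9 CPM in siCtr 0 d, 84.2 and 89.5 in siCtr TGFbeta, 37.5, 39.6 and 37.6 in siIrf1 0 d, and 43.1, 54.7 and 43 in siIrf1 TGFbeta, highest in siCtr TGFbeta. P4ha2 rose with TGFbeta in siCtr cells (0.80 ± 0.18, adjusted p = 0.00601) and was at 0.30, adjusted p = 0.186 in siIrf1 cells. It was lower with siIrf1 under TGFbeta (-0.89 ± 0.16, adjusted p = 0.00426), a call lost without siCtr TGFbeta replicate 3 (-0.88). Its interaction was -0.51, adjusted p = 0.27 and was called with the trend removed (-0.77, adjusted p = 0.0143).

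Ndrg1 is a stress-responsive gene induced by hypoxia in epithelia. Its level was 922 and 712 CPM in siCtr 0 d, 1005 and 997 in siCtr TGFbeta, 490.2, 531 and 463 in siIrf1 0 d, and 438, 484 and 391 in siIrf1 TGFbeta. No siIrf1 library reached a siCtr library. It was lower with siIrf1 at 0 d (-0.72 ± 0.16, adjusted p = 0.00779) and with TGFbeta (-1.19 ± 0.16, adjusted p = 0.000882, 0.437 times), while its TGFbeta effects were not called (0.29, adjusted p = 0.216 and -0.18, adjusted p = 0.452). The call at 0 d was lost without siCtr 0 d replicate 1 (-0.53). With the trend removed the TGFbeta effect in siCtr cells (0.49, adjusted p = 0.0137) and the interaction (-0.66, adjusted p = 0.0406) were called.

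Ankrd37 is a small ankyrin-repeat gene used as a hypoxia marker. It was at 5.77 and 6.46 CPM in siCtr 0 d, 1.99 and 2.5 in siCtr TGFbeta, 6.09, 6.06 and 6.65 in siIrf1 0 d, and 2.07, 2.5 and 2.11 in siIrf1 TGFbeta. The 0 d libraries lay between 5.77 and 6.65 CPM and the TGFbeta libraries between 1.99 and 2.50. It fell with TGFbeta in siCtr (-1.45 ± 0.23, adjusted p = 0.001) and siIrf1 cells (-1.49 ± 0.19, adjusted p = 0.000304), and the siIrf1 effects were 0.03, adjusted p = 0.911 at 0 d and -0.00053, adjusted p = 0.999 with TGFbeta. Mxi1 is a repressor that opposes Myc. It was at 67.8 and 58.1 CPM in siCtr 0 d, 56 and 56.3 in siCtr TGFbeta, 60.8, 70.6 and 64.2 in siIrf1 0 d, and 45.2, 51.3 and 43.8 in siIrf1 TGFbeta. Mxi1 fell in siIrf1 cells with TGFbeta (-0.48 ± 0.14, adjusted p = 0.0323), a call lost without any 1 of siIrf1 0 d replicates 1, 2 and 3, siCtr TGFbeta replicates 2 and 3 and siIrf1 TGFbeta replicates 1 and 3 (-0.53 to -0.42) and with the trend removed (-0.54, adjusted p = 0.115).

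Of the 12, 6 were not called in a comparison: the mitophagy receptors Bnip3 and Bnip3l, carbonic anhydrase Car9, the histone demethylase Kdm3a, P4ha1 and Higd1a. Car9 had 8 to 24 counts per library. Bnip3 had 41 to 126, with near-identical matches to 5 other genes. Bnip3l was at 22.2 and 63.7 CPM in siCtr 0 d, 59.4 and 61.2 in siCtr TGFbeta, 108, 72.6 and 130.4 in siIrf1 0 d, and 101, 48.4 and 112 in siIrf1 TGFbeta. Kdm3a was at 25.2 and 80.1 CPM in siCtr 0 d, 66.2 and 63.8 in siCtr TGFbeta, 84.1, 67.6 and 92.7 in siIrf1 0 d, and 79.5, 34.1 and 87.6 in siIrf1 TGFbeta. Both are low in GC (41.9% and 45.5%) and were lowest in siCtr 0 d replicate 1 and next lowest in siIrf1 TGFbeta replicate 2. Their siIrf1 effects at 0 d, 1.27, adjusted p = 0.065 and 0.63, adjusted p = 0.33, became 2.29 (adjusted p = 0.00549) and 1.76 (adjusted p = 0.0146) without siCtr 0 d replicate 3, and 0.70 (adjusted p = 0.329) and 0.02 (adjusted p = 0.988) without replicate 1. With the replicate block that of Bnip3l was called (1.54, adjusted p = 0.0264). Bnip3 was at -0.71, adjusted p = 0.2 with siIrf1 at 0 d and was called with the trend removed (-1.83, adjusted p = 0.00123).

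Other genes of glycolysis were read from lists that are not members. Of 29 tested enzymes and transporters, 10 fell and 4 rose with TGFbeta in siCtr cells (34.5% and 13.8%, against 16.3% and 16.1% of all genes), and 7 fell and 2 rose in siIrf1 cells (24.1% and 6.90%, against 9.71% and 11.6%). The gluconeogenic phosphatase Fbp2 fell from 17.6 and 13.1 to 0.409 and 0.699 CPM (-4.83 ± 0.36, adjusted p = 7.64e-06), and held 5.67, 8.31 and 5.99 CPM in siIrf1 TGFbeta. Fbp2 (4.07 ± 0.42, adjusted p = 0.0012), Gpd1l (1.64 ± 0.27, adjusted p = 0.00886) and the hexokinase relative Hkdc1 (1.91 ± 0.32, adjusted p = 0.00925) were among 5 of the 29 with a higher TGFbeta effect in siIrf1 cells (17.2%, against 2.80% of all genes). None had a lower one (1.32% of all genes). With siIrf1, 8 of the 29 were lower and 3 higher at 0 d (27.6% and 10.3%, against 15.5% and 16.3% of all genes), led by Eno3 (-1.15 ± 0.18, adjusted p = 0.00205). Under TGFbeta 3 were lower and 6 higher (10.3% and 20.7%, against 8.28% and 9.72%), led by Fbp2 (3.63 ± 0.33, adjusted p = 0.000155) and Slc2a2 (2.42 ± 0.30, adjusted p = 0.000708). The median over the 29 was -0.09 with TGFbeta in siCtr cells, against -0.52 over the members.

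In 2 connected pathways every gene called with TGFbeta fell. Of 12 pentose phosphate genes, 6 fell in siCtr and 4 in siIrf1 cells (50.0% and 33.3%, against 16.3% and 9.71% of all genes), led by glucose-6-phosphate dehydrogenase (G6pdx, -1.72 ± 0.19, adjusted p = 9.21e-05 and -1.57 ± 0.15, adjusted p = 5.6e-05) and Rpia (-1.37 and -0.82). Of 27 tested genes of pyruvate entry and the citric acid cycle, 10 fell in siCtr and 2 in siIrf1 cells (37.0% and 7.41%, against 16.3% and 9.71% of all genes). Pyruvate carboxylase (Pcx) was at 87.3 and 91.8 CPM in siCtr 0 d, 17.2 and 18.7 in siCtr TGFbeta, 55.5, 71.7 and 58.2 in siIrf1 0 d, and 46.1, 65.7 and 39.9 in siIrf1 TGFbeta. The fall in siCtr cells was called (-2.32 ± 0.25, adjusted p = 8.31e-05), with an interaction of 2.03 ± 0.31, adjusted p = 0.00639. With siIrf1 at 0 d, 15.5% of all genes were lower and 16.3% higher. Of the 27 genes, 4 were then lower and 3 higher (14.8% and 11.1%), led by Pdk2 (-1.62 ± 0.20, adjusted p = 0.000751). Neither share was above that of all genes. Of the 12 pentose phosphate genes 3 were lower and 2 higher, led by Pgd (-0.92 ± 0.17, adjusted p = 0.00383). Whether these counts differ from the shares of all genes was not tested.

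Of 18 tested genes of the HIF machinery outside the members, 3 rose and 3 fell with TGFbeta in siCtr cells (16.7% each way, near the 16.1% and 16.3% of all genes). In siIrf1 cells 1 rose (5.56%, against 11.6% of all genes). Epas1 (HIF-2 alpha) was at 43.3 and 50.6 CPM in siCtr 0 d, 20.5 and 20.4 in siCtr TGFbeta, 17.5, 25.5 and 17.3 in siIrf1 0 d, and 18.3, 15.7 and 24.3 in siIrf1 TGFbeta. Epas1 fell with TGFbeta in siCtr cells (-1.20 ± 0.27, adjusted p = 0.00656) and was lower with siIrf1 at 0 d (-1.22 ± 0.24, adjusted p = 0.00485). Arnt2 was listed at 0.782 and 0.799 CPM in siCtr TGFbeta and at most 0.0886 CPM elsewhere. Eloc rose in siCtr cells (1.02 ± 0.25, adjusted p = 0.0115) and with siIrf1 at 0 d (1.13 ± 0.24, adjusted p = 0.00683).

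Of 40 other textbook HIF targets, 12 rose and 6 fell with TGFbeta in siCtr cells (30.0% and 15.0%, against 16.1% and 16.3% of all genes), and 10 rose and 6 fell in siIrf1 cells (25% and 15.0%, against 11.6% and 9.71%). The repressor Bhlhe40 was at 137 and 121 CPM in siCtr 0 d, 680.2 and 687 in siCtr TGFbeta, 101, 126 and 94.2 in siIrf1 0 d, and 460.0, 479 and 503 in siIrf1 TGFbeta. The cytokine Il11 was at 0.393 and 0.364 CPM in siCtr 0 d, 165 and 214 in siCtr TGFbeta, 0.345, 0.158 and 0.317 in siIrf1 0 d, and 15.3, 10.3 and 12.7 in siIrf1 TGFbeta. Both rose with TGFbeta in both siRNAs, and the rise of Il11 was smaller in siIrf1 cells by the interaction test (-3.40 ± 0.47, adjusted p = 0.00403). With siIrf1 under TGFbeta, 8 of the 40 were lower and 2 higher (20.0% and 5.00%, against 8.28% and 9.72%). Of 28 glucose-sensing and growth regulators, 3 rose and 5 fell with TGFbeta in siCtr cells (10.7% and 17.9%, against 16.1% and 16.3%). Txnip is a glucose-responsive inhibitor of glucose uptake. It was at 71.4 and 67.2 CPM in siCtr 0 d, 139.6 and 139 in siCtr TGFbeta, 61, 70.6 and 63.6 in siIrf1 0 d, and 46.3, 60.4 and 44.2 in siIrf1 TGFbeta. It rose in siCtr cells (1.01 ± 0.19, adjusted p = 0.00232) with an interaction of -1.38 ± 0.24, adjusted p = 0.0114, and was lower with siIrf1 under TGFbeta (-1.47 ± 0.17, adjusted p = 0.000421).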

How the data were processed

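The authors deposited 1 table of raw read counts (whole numbers, not normalized) with a column for each of 10 libraries, per the file headers. Libraries were stranded per the labels' protocols. The submitters' processing notes name STAR and mm10 (GRCm38). A STAR version, a counting tool and its use of strand were not given in the sources used here, so that genes that overlap on opposite strands are uncertain. Of 24454 Entrez identifiers, 24374 were named from RefSeq GRCm38.p6, 7 from GENCODE M21, and 73 (0.211 to 1.50% of counts) had no match.

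Counts were fitted in R 4.3.3 with edgeR 4.0.16 (TMM scaling, filterByExpr, glmQLFit with robust estimation, glmQLFTest). All 10 libraries entered together and each group had its own term, with 13135 genes, 6 residual degrees of freedom, median prior 4.15 and a biological coefficient of variation of 0.225. SE is the log2 fold change over the square root of F. Depth was 27547649 to 67301646 counts, and the chi-square between replicates was 25.4 to 321 per degree of freedom, so that none was a copy of another. Levels per kilobase use the deposited gene length, in bases per the file headers. GC content, known for 95.0% of genes tested, is that of the annotated transcript, and the trend was fitted per library as splines and entered as offsets.

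The members, gene lists, tests and alternatives were chosen with earlier results of these data known. Named with full statistics are members called in a comparison, the 14 largest changes per comparison, and Hif1a, Slc2a1, Gapdh and Ldha; of other lists, up to 3 called genes with the smallest adjusted p. Some genes that this rule names are not reported here. Promoter stretches that overlap an annotated exon are not shown (2 of 6 chosen). Alternatives were RLE size factors, no filter, DESeq2 1.42.0, the compared groups alone, the replicate block, the GC and length trend removed (also with the block) and each library left out. Leaving out siCtr 0 d replicate 1 with siIrf1 TGFbeta replicate 2, and adding Eno1b to Eno1, were chosen after seeing the data. The script was tested on simulated counts. Correlating the deviations from the group mean of libraries with 1 number gave values over 0.1 in 8 of 12 pairs (-0.39 to 0.45); the 3 pairs of the siIrf1 groups all did (0.14 to 0.45), and the labels give libraries of 1 number the same tag in every group without saying what it marks. The main fit has no block, and blocked values stand beside the members whose call they change.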

Additional observations from a re-analysis of the deposited data

Results flagged for a closer look

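For 3 members the response to TGFbeta differed between siCtr and siIrf1 cells by the interaction test in edgeR. The TGFbeta effect on Pdk1 was -1.99 in siCtr and -0.02 in siIrf1 cells, a difference of 1.97 ± 0.26, adjusted p = 0.00295. That on Egln3 was -2.55 and -0.90, a difference of 1.65 ± 0.22, adjusted p = 0.00357. That on Pfkfb4 was 1.91 and 0.48, a difference of -1.43 ± 0.30, adjusted p = 0.0259, and it was lost without any 1 of 6 libraries.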

How the results depend on the processing

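Of 70 results for called members, 39 kept their direction and call in every alternative; over 1257 values, 184 lost the call and 1 reversed. The reversal was Egln1 with siIrf1 at 0 d, 0.047 (adjusted p = 0.755) with the GC and length trend removed and the replicate block. Of 110 results not called, 66 stayed so, and 116 of 1952 values were called. Members counted as lower or higher moved as follows. Falls with TGFbeta in siIrf1 cells (9) became 16 with the trend removed, with or without the block. Members higher with siIrf1 at 0 d (2) became 4 with the replicate block. Members lower at 0 d (17) became 11 without a filter on low counts, 12 with the trend removed and 13 with the block added. Members lower with siIrf1 under TGFbeta (10) became 6 with the compared groups alone. Members with a lower TGFbeta effect in siIrf1 cells (1) became 2 with DESeq2, 5 with the trend removed and 3 with the trend removed and the block. The cause was not tested.

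With each library left out in turn, falls and rises with TGFbeta were 8 to 16 and 6 to 9 in siCtr and 7 to 14 and 4 to 5 in siIrf1 cells. Members lower and higher with siIrf1 were 7 to 21 and 2 to 4 at 0 d, and 3 to 13 and 2 to 3 with TGFbeta. The interaction called 0 to 3 lower and 2 higher in each. Without siCtr 0 d replicate 1 and siIrf1 TGFbeta replicate 2 together, 17 members fell in siCtr and 17 in siIrf1 cells with TGFbeta, 19 were lower and 5 higher with siIrf1 under TGFbeta, and 2 had a lower effect in the interaction. The lone library left in a group is then assumed to vary like the other groups. Counts over all genes moved in these runs as well, so such swings are not particular to the members. Without siIrf1 TGFbeta replicate 2, for instance, falls over all genes with TGFbeta in siCtr cells went from 2147 to 2528.

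With the replicate block, 18 members were lower with siIrf1 at 0 d and 13 fell with TGFbeta in siIrf1 cells. The block ended the calls of Hif1a with TGFbeta in siCtr cells (1.77) and Pgk1 with siIrf1 at 0 d (-0.51), and ended no other. It added those of Eno1 with TGFbeta in siCtr cells (-0.94), of Slc2a1, Gpi1, Gapdh and Pkm with TGFbeta in siIrf1 cells, and of Tpi1, Pkm, Slc16a1 and Bnip3l with siIrf1 at 0 d. With the trend removed, calls were gained by Hk1, Eno1, Ndrg1 and Bnip3 with TGFbeta in siCtr cells, by Slc2a1, Gpi1, Pfkl, Pfkm, Gapdh, Pgam1, Eno1 and Pkm with TGFbeta in siIrf1 cells, by Pdk1 and Bnip3 with siIrf1 at 0 d, by Ldha with siIrf1 under TGFbeta, and by Vegfa, Ndrg1, Bnip3, P4ha2 and Hif1a in the interaction. RLE size factors ended the call of Pkm with TGFbeta in siCtr cells (-0.76). Without a filter on low counts the calls lost were those of Pkm (-0.72) and Hif1a in siCtr and Mxi1 in siIrf1 cells with TGFbeta, and of Pfkl, Gapdh, Pgk1, Egln1, Egln3 and Pfkfb4 with siIrf1 at 0 d. With the compared groups alone they were those of Hif1a in siCtr and Aldoa and Mxi1 in siIrf1 cells with TGFbeta, of Pgk1, Egln1, Egln3 and Pfkfb4 with siIrf1 at 0 d, and of Aldoa, Gapdh, Vegfa and Hk1 with siIrf1 under TGFbeta. Over the whole table, genes that fell with TGFbeta in siIrf1 cells (1276) became 2461 with the trend removed and 2467 with the block added, and genes lower with siIrf1 under TGFbeta (1088) became 1834 and 1724. Genes higher with siIrf1 under TGFbeta (1277) became 774 with the compared groups alone. In the interaction, 368 up and 173 down became 725 and 441 with DESeq2, 750 and 506 with the trend removed, and 553 and 383 with the trend removed and the block. Values of members with near-identical matches to other genes are limited by how reads were assigned. Eno2, Slc16a3 and Car9 are limited by their low counts. For Gapdh, Bnip3 and Pfkp, with low counts and such matches, the 2 limits cannot be told apart.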
